A study of Homo sapiens with 12 samples.

Results

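Transcript levels of 51 genes of DNA replication were followed across the arms of a drug experiment in C4.2B, a human prostate cancer cell line that models castration-resistant disease. The genes were taken by symbol from a hand-written list that covers origin licensing, the replication fork and 3 regulators of entry into S phase. All 51 were among the 23228 genes in the count data. They fall into 10 role groups, from origin recognition to chromatin assembly behind the fork.

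PolyA RNA was sequenced from 12 libraries in 4 arms of 3, lettered A, B and C. Cells received DMSO vehicle, 0.5 µM GDC-0941 (GDC), which blocks class I PI3 kinases, 5 µM GSK126 (GSK), which blocks the histone methyltransferase EZH2, or both together at these doses (COMBO). Every arm spent its last 24 h in 10% charcoal-stripped serum, which is low in steroid hormones, and cells given GSK126 had already been kept in that drug for 6 days. GDC-0941 was therefore present for 1 day and GSK126 for 7, in a single cell line. The study's methods describe plates seeded in triplicate after the pretreatment, so p-values measure the spread between plates of 1 line and not between independent pretreatments.

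A cell licenses its replication origins in G1, when the origin recognition complex, CDC6 and CDT1 load the MCM2-7 helicase onto DNA. At the start of S phase the kinase CDC7 with its partner DBF4, the CDC45 and GINS factors and MCM10 turn the loaded helicase into a moving fork, where primase, the replicative polymerases, the PCNA clamp and its RFC loader copy the DNA. Many of these genes are transcribed under E2F factors, which the RB family holds back until cyclin-dependent kinases release them, so their transcripts are commonly read as a mark of proliferating cells.

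Both inhibitors lowered replication transcripts, GDC slightly, GSK clearly, and the combination most. Levels are given as CPM, read counts divided by library size and scaled between libraries by TMM, and differences as log2 fold changes from the quasi-likelihood test of edgeR, called at a Benjamini-Hochberg adjusted p under 0.05 over 14189 tested genes. All 51 genes passed the filter on low counts. In GDC against DMSO 41 fell and 1 rose, where 20.0% of all tested genes fell and 20.0% rose. Without any 1 of the DMSO or GDC libraries, the rising genes dropped from 2841 to between 1844 and 2147. The falling genes went from 2843 to between 2755 and 3318. DESeq2 called 2023 genes higher, and scaling by library totals 3325. In GSK all 51 fell, compared with 35.7% of tested genes that fell and 40.0% that rose. Of these calls, 49 held under scaling by library totals, which lost ORC3 and RPA3, and 50 without GSK replicate C, which lost ORC3. In COMBO 50 fell, with the background at 39.2% lower and 43.3% higher. None of the 51 rose in GSK or COMBO, also at an unadjusted p under 0.05 and by DESeq2.

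The sizes separated the arms further. For GDC the median log2 fold change of the 51 genes was -0.31, for GSK -1.29 and for COMBO -2.41, beside medians of 0.02, 0.06 and 0.05 over all tested genes. These comparisons share the DMSO libraries. A fall of at least 1 on the log2 scale was reached by 0 of the 51 genes in GDC (0.148% of all tested genes), 38 in GSK (5.86%) and 47 in COMBO (11.2%). In COMBO 34 fell by at least 2, 12 by at least 3 and 3 by at least 4. Over all tested genes these counts were 283, 44 and 8. In bulk RNA, fewer cells in S phase and less of each transcript per cell cannot be told apart.

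The libraries themselves kept nearly the same order. The GDC libraries lay below all DMSO libraries for 42 genes (24.8% of all tested genes did so), the GSK libraries for 51 (36.3%) and the COMBO libraries for 50 (39.0%). For 41 genes the arms formed 4 separate steps with no overlap, DMSO above GDC above GSK above COMBO, a pattern that 10.9% of tested genes showed. Together the 51 genes took 0.640% ± 0.00751 of all gene counts with DMSO, 0.541% ± 0.0157 with GDC, 0.299% ± 0.0104 with GSK and 0.171% ± 0.00234 with COMBO (mean ± SD of 3 libraries).

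**Figure D1:**
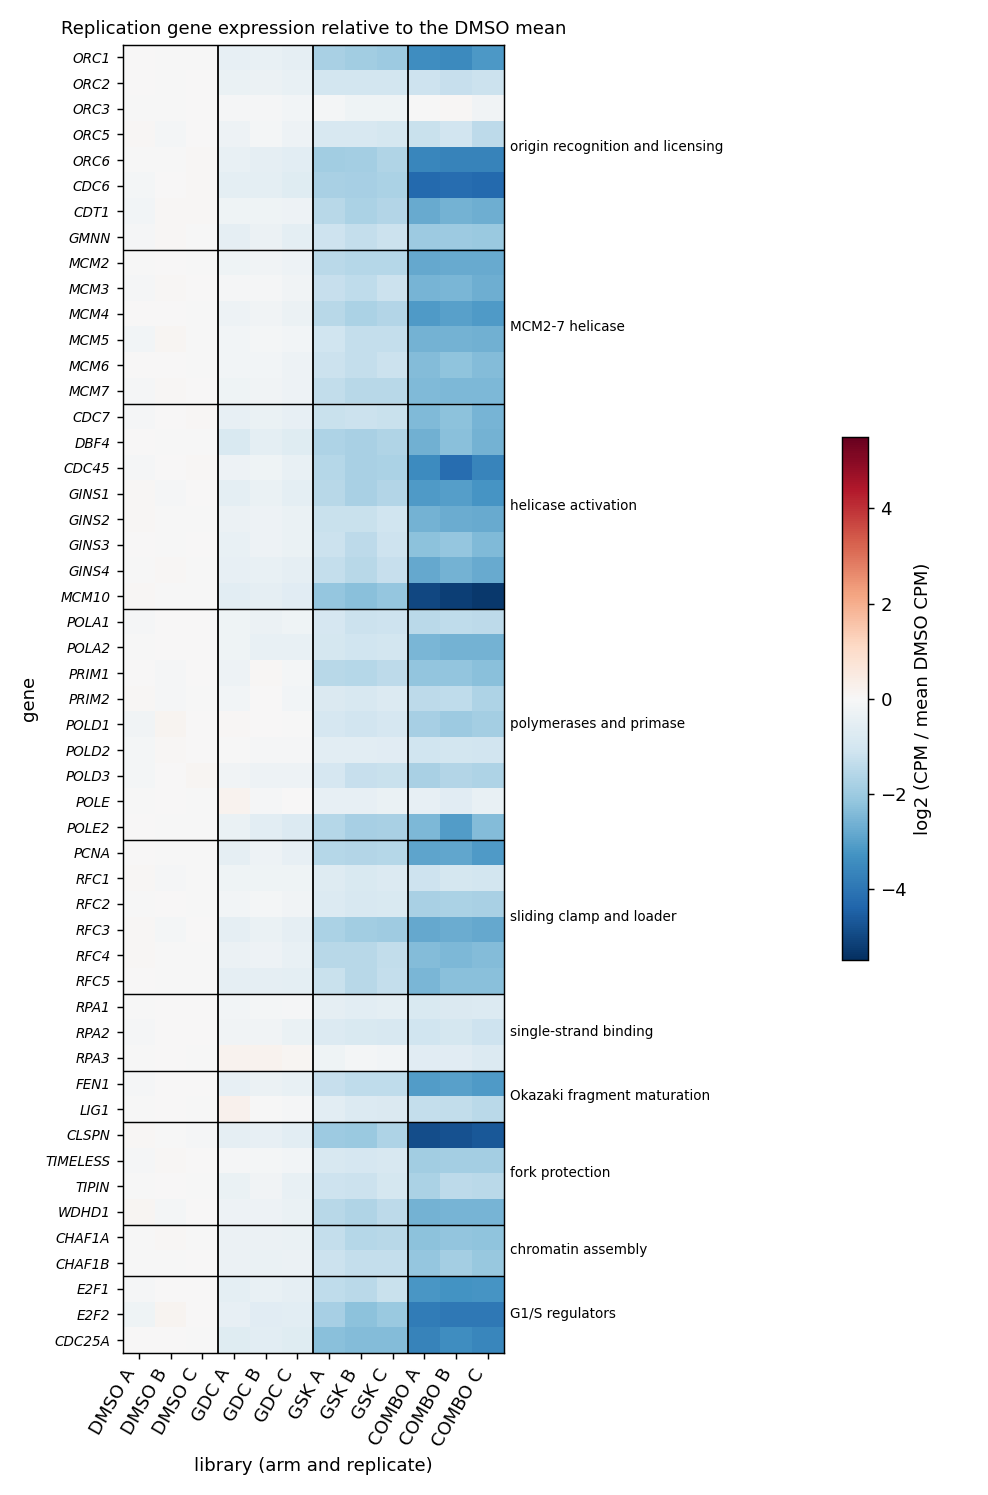
Rows are the 51 genes by role group, columns the 12 libraries, and color is log2 of a library's CPM over the mean DMSO CPM, from blue (lower) to red (higher). The GSK columns are blue in nearly every row and the COMBO columns darker still, deepest for MCM10, CLSPN and CDC6, while ORC3 stays pale in all arms.

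Depth ranged from 8785218 to 44437751 counts in genes, with the widest spread within DMSO, 10199514 to 44437751. Some other features of the libraries moved with the arms. The share of reads that fell in genes declined from 75.8% with DMSO to 74.1% with GDC, 70.7% with GSK and 67.6% with COMBO. Of 8 housekeeping genes 6 were lower and 1 higher in COMBO (39.2% and 43.3% of tested genes), with a median of -0.52. Scaling by library totals raised the median of all genes by 0.15 in GSK and 0.21 in COMBO and turned the split of calls from 5072 lower and 5676 higher to 3931 and 6977 in GSK, and from 5555 and 6148 to 4342 and 7477 in COMBO; changes are given relative to TMM. All 11 luminal prostate markers were expressed, summing to 4146 to 4311 CPM with DMSO, 5966 to 6166 with GDC, 5140 to 5581 with GSK and 6537 to 7038 with COMBO. Fibroblast markers summed to 11.8 to 13.8 CPM with DMSO, 14.5 to 18.6 with GDC, 28.0 to 40.3 with GSK and 31.4 to 50.5 with COMBO, with 6 of 8 under 1 CPM on average. Leukocyte markers summed to 5.05 to 10.7 CPM over all libraries, with 7 of 8 under 1 CPM and 2 at a count of 0. The part of these features in the falls was not tested.

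Promoter sequence gives a view of these genes that does not come from the libraries. RefSeq windows of 300 bases on GRCh38.p14, from 250 before the start to 50 after it, were available for 45 of the 51 genes, 1 window per gene. Both strands were searched for E2F motifs, spelled TTTCCCGC, TTTGGCGC, TTTGCCGC or TTTCGCGC, and 21 of the 45 windows (46.7%) held at least 1, compared with 3.34% of 27305 windows of all genes. The CCAAT box, CCAAT, was in 55.6% of the 45 and 35.7% of all, and the MYC E-box, CACGTG, in 15.6% and 7.41%. The CHR element of mitotic genes, TTTGAA or TTCGAA, was in 4.44% and 16.7%. The replication windows were richer in G and C, with a median of 65.7% against 58.3%, and no share was corrected for that. Within the 45, an E2F motif was in 12 of the 17 genes with the deepest COMBO falls, 5 of the middle 11 and 4 of the 17 with the smallest. The median COMBO log2 fold change was -2.68 in genes with an E2F motif and -2.11 in those without, a difference that was not tested.

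Motif and response did not pair in every gene, as 5 windows show. They belong to the 3 deepest COMBO falls, to MCM6, which had the shallowest fall of its helicase, and to ORC3, the 1 gene not called, and were chosen after their values were seen. Capitals mark the E2F motifs.
MCM10 promoter, chr10:13161308-13161607, plus strand: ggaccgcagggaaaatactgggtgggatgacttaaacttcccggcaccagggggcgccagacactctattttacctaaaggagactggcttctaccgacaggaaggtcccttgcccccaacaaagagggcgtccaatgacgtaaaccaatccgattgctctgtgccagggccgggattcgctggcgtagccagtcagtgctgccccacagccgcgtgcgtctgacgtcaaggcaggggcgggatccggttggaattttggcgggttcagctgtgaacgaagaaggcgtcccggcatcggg
CLSPN promoter, chr1:35769929-35770228, minus strand: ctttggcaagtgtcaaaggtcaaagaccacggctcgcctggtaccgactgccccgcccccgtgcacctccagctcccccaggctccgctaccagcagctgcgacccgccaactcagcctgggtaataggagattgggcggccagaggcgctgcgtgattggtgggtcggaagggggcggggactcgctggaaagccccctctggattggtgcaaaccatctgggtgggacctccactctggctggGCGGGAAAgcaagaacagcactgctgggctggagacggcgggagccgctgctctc
CDC6 promoter, chr17:40287629-40287928, plus strand: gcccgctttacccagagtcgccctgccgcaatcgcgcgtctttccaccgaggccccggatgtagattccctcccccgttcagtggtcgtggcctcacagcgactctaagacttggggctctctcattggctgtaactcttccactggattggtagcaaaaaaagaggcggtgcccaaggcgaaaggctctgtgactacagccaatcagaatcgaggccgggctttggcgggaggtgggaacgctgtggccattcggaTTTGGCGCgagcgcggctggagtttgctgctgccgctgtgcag
MCM6 promoter, chr2:135876394-135876693, minus strand: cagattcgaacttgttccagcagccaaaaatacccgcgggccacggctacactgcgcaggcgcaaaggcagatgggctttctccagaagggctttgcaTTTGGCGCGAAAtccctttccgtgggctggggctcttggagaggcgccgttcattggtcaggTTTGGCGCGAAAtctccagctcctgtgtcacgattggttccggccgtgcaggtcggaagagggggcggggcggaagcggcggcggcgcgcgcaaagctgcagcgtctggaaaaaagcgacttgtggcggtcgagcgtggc
ORC3 promoter, chr6:87589885-87590184, plus strand: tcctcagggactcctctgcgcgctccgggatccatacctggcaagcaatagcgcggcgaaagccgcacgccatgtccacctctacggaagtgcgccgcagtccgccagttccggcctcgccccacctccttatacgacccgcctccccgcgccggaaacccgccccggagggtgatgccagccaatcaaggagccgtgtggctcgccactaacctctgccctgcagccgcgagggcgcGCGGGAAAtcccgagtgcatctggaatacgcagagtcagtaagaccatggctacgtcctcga
MCM10 fell most and held none of the 4 spellings. ORC3 held GCGGGAAA, the reverse complement of TTTCCCGC, at bases 239 to 246, and CLSPN held the same letters at bases 246 to 253. MCM6 held 4 matches as 2 overlapping pairs. A match describes letters in this window, not a bound site, and the absence of one says only that these letters are not there.

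Among the licensing genes the falls were very unequal. Of 8 genes, 7 fell in COMBO, where 39.2% of all tested genes fell. The median of the 8 was -2.35. CDC6 (chromosome 17, 40287879 to 40304657), the ATPase that loads MCM2-7 together with CDT1, stood at 142, 155 and 158 CPM with DMSO, 103, 105 and 96.6 with GDC, 44.4, 42.9 and 46.0 with GSK and 7.90, 8.34 and 7.86 with COMBO (libraries A, B and C). The arms did not overlap, and COMBO kept 5.30% of the DMSO mean. Its log2 fold changes were -0.59 for GDC, -1.78 for GSK and -4.24 (SE 0.067, adjusted p = 7.40e-21) for COMBO.

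ORC3 (chromosome 6, 87590067 to 87667453), a core subunit of the origin recognition complex, hardly moved. Its CPM values were 37.3, 37.9 and 38.9 under DMSO, 36.2, 36.8 and 34.4 under GDC, 35.6, 32.7 and 32.7 under GSK and 37.2, 39.6 and 33.5 under COMBO. The COMBO libraries lay on both sides of the DMSO libraries, with a log2 change of -0.05 (SE 0.063, adjusted p = 0.499), although under library totals it turned to 0.16 (adjusted p = 0.0234). GSK was lower by a small step, -0.19 (SE 0.068, adjusted p = 0.0184), a call lost under library totals (-0.03, adjusted p = 0.675) and without GSK replicate C (-0.16, adjusted p = 0.0708). ORC2 (chromosome 2, 200908977 to 200963680), another core subunit, went from 82.5, 79.7 and 82.0 CPM with DMSO to 64.1, 65.2 and 61.2 with GDC, 40.4, 40.9 and 40.3 with GSK and 36.5, 34.0 and 35.6 with COMBO. Its fall was therefore nearly complete with GSK alone, -1.01 against -1.21 in COMBO. ORC5 behaved alike in size, at -1.22 in COMBO.

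ORC1 and ORC6, the subunits whose presence at origins varies through the cell cycle, fell far more. ORC1 went from 66.4 ± 0.974 CPM in DMSO to 6.50 ± 0.832 in COMBO (SD, n = 3), a log2 change of -3.37 (SE 0.078, adjusted p = 1.62e-18). ORC1 has 1 named pseudogene, so its counts and the subunit ratios that use them are uncertain. ORC6 went from 64.5 ± 1.87 to 5.15 ± 0.170 CPM, a log2 change of -3.65 (SE 0.082, adjusted p = 1.04e-18). CDT1, which brings MCM2-7 to origins, and GMNN, which encodes its inhibitor geminin, both declined. In COMBO the changes were -2.68 for CDT1 and -2.02 for GMNN. In GDC the order was the other way round, -0.25 for CDT1 and -0.45 for GMNN.

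The 6 subunits of the MCM2-7 helicase moved as a block. In COMBO all 6 fell (39.2% of tested genes did), between -3.06 and -2.31. In GSK all 6 fell as well (35.7% of tested genes), between -1.64 and -1.22. MCM4 (chromosome 8, 47960185 to 47978160) gave 481, 484 and 469 CPM under DMSO, 393, 412 and 383 under GDC, 165, 142 and 154 under GSK and 55.0, 60.4 and 55.7 under COMBO. MCM6 (chromosome 2, 135839626 to 135876443) gave 206, 204 and 201 CPM with DMSO, 181, 181 and 169 with GDC, 90.2, 81.2 and 90.3 with GSK and 38.7, 44.5 and 39.1 with COMBO. For both the arms formed 4 steps without overlap. The COMBO log2 fold change was -3.06 (SE 0.057, adjusted p = 9.40e-20) for MCM4 and -2.31 (SE 0.059, adjusted p = 6.48e-18) for MCM6. With GDC alone the helicase was little affected, since MCM3 at -0.11 (adjusted p = 0.108) and MCM5 at -0.13 (adjusted p = 0.0963) were not called and the other 4 lay between -0.27 and -0.20. MCM7 shares exon positions with AP4M1 and MIR93, so its counts are uncertain.

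The genes that activate the helicase fell most as a group after the S-phase regulators, with a COMBO median of -2.70. All 8 were lower in every inhibitor arm, where 20.0% of tested genes were lower in GDC, 35.7% in GSK and 39.2% in COMBO. MCM10 (chromosome 10, 13161558 to 13211110), a factor needed for the helicase to unwind the origin, stood at 142, 136 and 134 CPM under DMSO, 93.0, 98.3 and 90.1 under GDC, 31.5, 27.5 and 31.2 under GSK and 4.24, 3.77 and 3.42 under COMBO. That left 22.0% of the DMSO mean in GSK and 2.78% in COMBO. CDC45, which rides with MCM2-7 in the active helicase, followed at 73.9 ± 3.83 CPM in DMSO and 5.56 ± 1.37 in COMBO, a log2 change of -3.78 (SE 0.11, adjusted p = 2.33e-17).

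The 4 GINS subunits, partners of CDC45, spread from -3.11 for GINS1 to -2.24 for GINS3 in COMBO. GINS3 (chromosome 16, 58295080 to 58406147) gave 34.3, 33.1 and 34.7 CPM with DMSO, 25.7, 28.3 and 26.2 with GDC, 14.9, 12.6 and 15.6 with GSK and 7.08, 7.85 and 6.41 with COMBO. Its arms were again separate, with -2.24 (SE 0.087, adjusted p = 3.81e-15) in COMBO. The origin-firing kinase showed a split between its subunits. DBF4, the regulatory one, had the largest GDC fall of all 51 genes, -0.67 (SE 0.069, adjusted p = 4.36e-07), while CDC7, the catalytic one, was at -0.43. In COMBO they reached -2.50 and -2.39. DBF4 has 3 named pseudogenes and overlaps SLC25A40, and GINS1 overlaps NINL, so their counts are uncertain.

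Polymerase and primase genes responded less. In GDC 4 of 9 fell, a share of 44.4% where 20.0% of all tested genes fell. The 5 not called were PRIM1, PRIM2, POLD1, POLD2 and POLE, at -0.10, -0.09, 0.01, -0.05 and 0.05. All 9 fell in GSK and COMBO (35.7% and 39.2% of tested genes), with medians of -1.03 and -1.70. The subunits of polymerase epsilon, which copies the leading strand, marked both ends. POLE (chromosome 12, 132623753 to 132687376), its catalytic subunit, gave 93.9, 94.3 and 93.6 CPM under DMSO, 107, 90.0 and 95.4 under GDC, 68.3, 69.1 and 72.7 under GSK and 69.1, 61.1 and 71.4 under COMBO. GSK and COMBO libraries overlapped each other below DMSO, at -0.42 (SE 0.066, adjusted p = 8.31e-06) and -0.49 (SE 0.064, adjusted p = 5.94e-07). POLE2 (chromosome 14, 49643555 to 49688422), its accessory subunit, gave 27.5, 26.7 and 26.2 CPM with DMSO, 20.7, 17.9 and 15.9 with GDC, 9.01, 7.51 and 7.71 with GSK and 4.88, 3.15 and 5.17 with COMBO. It declined in 4 separate steps to -2.64 (SE 0.13, adjusted p = 1.48e-13).

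Polymerase alpha, which with primase makes the RNA-DNA primers, was also uneven. In COMBO POLA2, its accessory subunit, was at -2.57 and POLA1, the catalytic one, at -1.44, although in GSK they were close, at -1.03 and -1.08. The primase subunits PRIM1 and PRIM2 were at -2.20 and -1.49 in COMBO. In polymerase delta, the lagging-strand enzyme, POLD1, POLD3 and POLD2 were at -1.92, -1.70 and -1.06. PRIM1 overlaps NACA and HSD17B6 and POLD2 has 1 named pseudogene, so both are uncertain.

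PCNA (chromosome 20, 5114953 to 5126626), the ring that holds polymerases on DNA and a common proliferation marker, fell deeply. Its CPM values were 266, 255 and 257 under DMSO, 185, 214 and 187 under GDC, 86.6, 84.0 and 88.0 under GSK and 34.9, 35.5 and 29.8 under COMBO, in 4 steps without overlap. The COMBO change was -2.94 (SE 0.067, adjusted p = 1.18e-18), which left 12.9% of the DMSO mean. PCNA has 3 named pseudogenes, so a part of its reads is uncertain. Of the RFC clamp loader, RFC1 (chromosome 4, 39287456 to 39366375), the large subunit, gave 221, 201 and 205 CPM with DMSO, 178, 175 and 177 with GDC, 127, 116 and 124 with GSK and 95.4, 108 and 103 with COMBO. It fell in every arm but to no less than 48.9% of DMSO, a log2 change of -1.03 (SE 0.053, adjusted p = 3.47e-13). The 4 small subunits fell more, from -1.76 for RFC2 to -2.78 for RFC3. RFC3, RFC4 and RFC5 carry overlaps or pseudogenes and are uncertain.

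RPA, the trimer that coats single-stranded DNA in replication and in repair, had the smallest falls of any role group, with a COMBO median of -0.80. RPA2 (chromosome 1, 27891524 to 27914746) gave 87.7, 93.0 and 90.5 CPM under DMSO, 79.0, 79.7 and 70.1 under GDC, 53.5, 50.3 and 48.4 under GSK and 42.2, 46.6 and 40.6 under COMBO. RPA3 (chromosome 7, 7636518 to 7718607) gave 44.6, 45.3 and 44.4 CPM with DMSO, 51.2, 51.7 and 48.6 with GDC, 37.6, 41.1 and 40.3 with GSK and 29.4, 29.1 and 26.5 with COMBO. RPA2 fell in each arm, to -1.06 (SE 0.062, adjusted p = 2.37e-12) in COMBO. RPA3 was the 1 gene of the 51 called higher than DMSO in GDC, at 0.17 (SE 0.056, adjusted p = 0.0185), and it fell in COMBO, at -0.65 (SE 0.058, adjusted p = 2.17e-09). That GDC call was lost without any 1 of the 6 libraries, where adjusted p was 0.0562 to 0.205, and by DESeq2 (adjusted p = 0.144). RPA2 and RPA3 have 3 and 2 named pseudogenes and RPA1 overlaps SMYD4, so the trimer is uncertain as a whole.

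Of the pair that finishes Okazaki fragments, the flap nuclease FEN1 (chromosome 11, 61792911 to 61797238) gave 196, 209 and 204 CPM under DMSO, 149, 161 and 154 under GDC, 84.5, 77.3 and 77.0 under GSK and 23.8, 25.9 and 23.2 under COMBO. Its 4 arms were separate and the COMBO change was -3.06 (SE 0.058, adjusted p = 1.24e-19). The ligase LIG1 (chromosome 19, 48115445 to 48170603) gave 35.8, 36.3 and 36.0 CPM with DMSO, 42.2, 35.7 and 34.9 with GDC, 23.8, 21.6 and 20.7 with GSK and 14.4, 13.9 and 13.0 with COMBO. GDC libraries lay around DMSO, 0.05 (SE 0.071, adjusted p = 0.592), and only GSK and COMBO were lower, the latter at -1.38 (SE 0.078, adjusted p = 1.52e-12). FEN1 overlaps FADS2 and has 1 named pseudogene, so its counts are uncertain.

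CLSPN (chromosome 1, 35720218 to 35769978), the claspin adaptor that links a stalled fork to the checkpoint kinase CHEK1, had the second deepest fall. Its CPM values were 121, 116 and 112 under DMSO, 81.7, 84.2 and 78.5 under GDC, 29.0, 28.4 and 35.9 under GSK and 3.89, 4.17 and 4.52 under COMBO. COMBO kept 3.62% of the DMSO mean and GSK 26.8%. The other fork protection genes fell less. TIPIN (chromosome 15, 66336191 to 66386746), which works in a complex with TIMELESS, gave 36.7, 37.0 and 36.5 CPM with DMSO, 28.6, 32.5 and 28.0 with GDC, 16.5, 16.1 and 18.7 with GSK and 11.1, 13.7 and 13.0 with COMBO, a log2 change of -1.54 (SE 0.083, adjusted p = 6.53e-13). TIMELESS was at -1.89 in COMBO, and WDHD1, which ties polymerase alpha to the helicase, was at -2.57. TIPIN has 1 named pseudogene.

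The large subunits of CAF-1, the chaperone that deposits new histones behind the fork, declined together. CHAF1A (chromosome 19, 4402640 to 4445018) gave 107, 112 and 106 CPM under DMSO, 86.2, 87.2 and 82.8 under GDC, 43.5, 36.9 and 37.5 under GSK and 22.8, 23.8 and 23.5 under COMBO. CHAF1B (chromosome 21, 36385392 to 36419015) gave 66.1, 66.2 and 68.0 CPM with DMSO, 52.7, 51.7 and 52.8 with GDC, 29.8, 26.9 and 26.9 with GSK and 15.2, 18.3 and 15.7 with COMBO. Both had 4 separate steps, with -2.21 (SE 0.060, adjusted p = 1.30e-17) and -2.02 (SE 0.066, adjusted p = 2.50e-16) in COMBO. They overlap UBXN6 and MORC3 and are uncertain for that reason.

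The regulators of S-phase entry had the largest group median in COMBO, -3.53. E2F1 (chromosome 20, 33675477 to 33686385), an activator of the genes described here, gave 90.1, 96.9 and 97.0 CPM under DMSO, 65.8, 71.6 and 67.3 under GDC, 36.2, 34.0 and 41.1 under GSK and 10.2, 9.63 and 9.90 under COMBO, a log2 change of -3.26 (SE 0.073, adjusted p = 1.03e-18). E2F2 (chromosome 1, 23506438 to 23531233), a related activator, gave 22.1, 29.1 and 26.4 CPM with DMSO, 19.2, 16.6 and 17.1 with GDC, 7.36, 5.38 and 6.36 with GSK and 1.80, 1.69 and 1.67 with COMBO, a log2 change of -3.92 (SE 0.14, adjusted p = 8.03e-16). Neither gene had overlapping arms. CDC25A, the phosphatase that releases CDK2 from inhibition, had the largest GSK fall of the 51, -2.35 (SE 0.065, adjusted p = 1.44e-16), and was at -3.53 in COMBO.

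**Figure D2:**
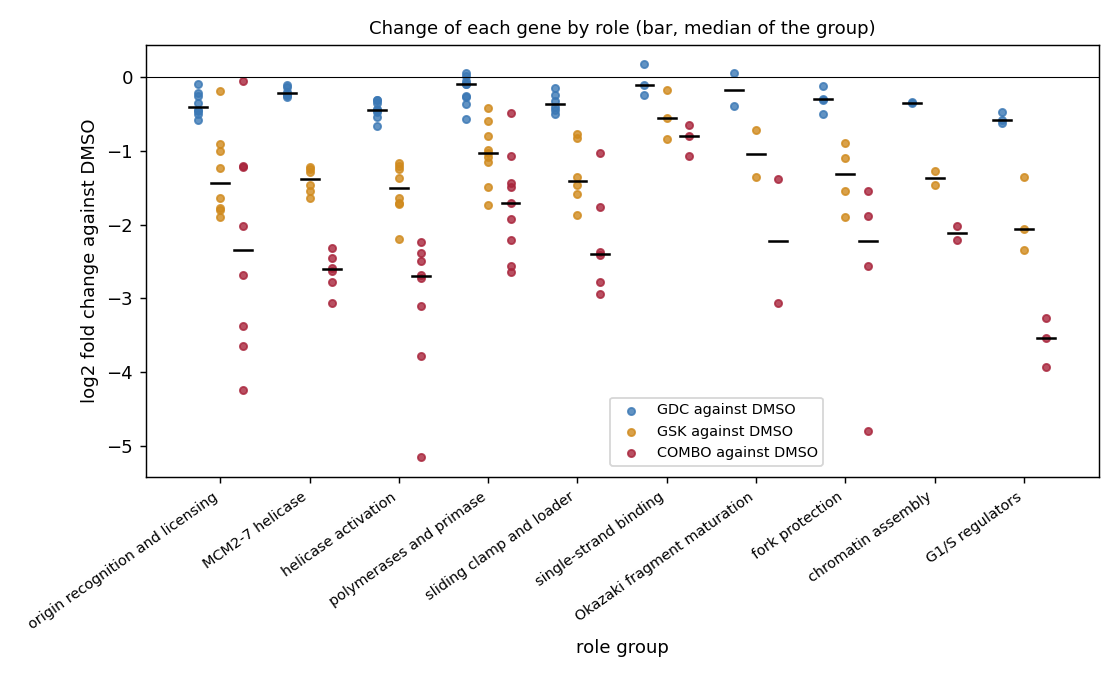
Each point is 1 gene's log2 fold change against DMSO in GDC (blue), GSK (orange) or COMBO (red), with genes set out by role group and a black bar at each group median. COMBO medians run from -0.80 for the RPA genes to -3.53 for the S-phase regulators, and single points mark ORC3 near 0 and MCM10, CLSPN and CDC6 below -4.

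To ask what each agent added to the other, COMBO was compared with both single arms. Against GDC, 50 of the 51 genes were lower and 0 higher (38.0% and 37.9% of tested genes), with a median of -2.09. Against GSK, 49 were lower and 0 higher (26.9% and 19.0%), with a median of -0.99. None of the 51 was higher in either at an unadjusted p under 0.05 or by DESeq2. Those not called lower were ORC3 in both, at 0.05 (adjusted p = 0.531) and 0.14 (adjusted p = 0.106), and POLE against GSK, at -0.07 (adjusted p = 0.448). Under library totals ORC3 was called higher in both, at 0.22 (adjusted p = 0.00475) and 0.19 (adjusted p = 0.0254). Against GSK it was also called higher at a mean of at least 1 CPM, without GSK replicate A and without COMBO replicate C (adjusted p = 0.0263 to 0.0458). The step from GSK to COMBO was -2.97 (SE 0.096, adjusted p = 8.07e-15) for MCM10, -2.90 (SE 0.11, adjusted p = 4.95e-14) for CLSPN and -2.46 (SE 0.076, adjusted p = 4.91e-15) for CDC6. It was -0.26 (SE 0.055, adjusted p = 0.000773) for RFC1 and -0.20 (SE 0.056, adjusted p = 0.00645) for ORC2. The ORC2 call was lost with no filter on low counts (-0.17, adjusted p = 0.0674) and without GSK replicate B (-0.16, adjusted p = 0.059). That of RPA2 was lost without GSK replicate A or B or COMBO replicate A or C (adjusted p = 0.0519 to 0.103).

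The interaction term, COMBO minus GDC minus GSK plus DMSO, asks on the log2 scale whether COMBO equalled the added changes of both single agents. It was below 0 and called for 39 of the 51 genes and above 0 for none, compared with 16.5% and 4.86% of tested genes. That background was unstable where the members' count was not. Of all tested genes 2344 were lower and 690 higher, which became 1319 and 1638 with no filter on low counts, and 1677 and 1151 at a mean of at least 1 CPM. Lower calls dropped to between 1279 and 1410 without any 1 of DMSO A or C, GDC A, B or C, GSK A or B, or COMBO A, and higher calls reached 1178 without DMSO B and 1092 without COMBO A. Among the 51, 38 were lower in both filter settings and 37 to 39 without single libraries. ORC2 and ORC3 lay above 0 at an unadjusted p under 0.05, and DESeq2 called none higher. The median over the 51 was -0.72, and -0.06 over all tested genes. For MCM10 the single agents summed to -2.73 and COMBO was at -5.15, an interaction of -2.42 (SE 0.11, adjusted p = 3.41e-11). CLSPN summed to -2.39 against -4.79, an interaction of -2.40 (SE 0.13, adjusted p = 1.16e-10). CDC6 summed to -2.36 against -4.24, an interaction of -1.87 (SE 0.092, adjusted p = 5.40e-11). All 3 thus lost more in COMBO than the sum of the single agents.

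The 12 genes not called for the interaction were ORC2, ORC3, ORC5, DBF4, POLA1, POLD3, POLE, POLE2, RFC1, RPA1, RPA2 and TIPIN. The highest were ORC3 at 0.23 (SE 0.094, adjusted p = 0.0876), ORC2 at 0.16 (SE 0.074, adjusted p = 0.139) and RPA2 at 0.02 (SE 0.090, adjusted p = 0.889). Size of fall and departure from the sum were different things here, since DBF4 and POLE2 reached -2.50 and -2.64 in COMBO where their sums were -2.38 and -2.30. RPA3 showed the opposite, with a sum of 0.00 and -0.65 in COMBO, an interaction of -0.66 (SE 0.084, adjusted p = 1.20e-05). By group the interaction was called for all 6 MCM2-7 genes, 7 of 8 activation genes, 5 of 8 licensing genes, 5 of 9 polymerase genes and 1 of 3 RPA genes. All of these were below 0, where 16.5% of tested genes were called below 0.

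**Figure D3:**
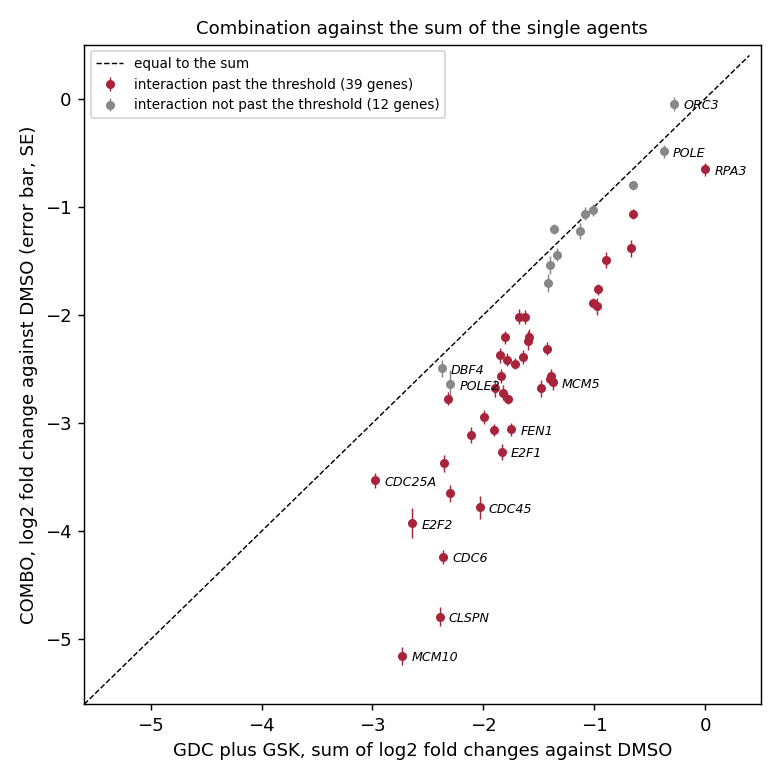
Each point is 1 gene, placed by the sum of its GDC and GSK log2 fold changes (horizontal) and its COMBO log2 fold change with SE (vertical), and the dashed line marks equality. The 39 genes with a called interaction (red) lie below the line, MCM10, CLSPN and CDC6 farthest, and the 12 not called (grey) lie near it.

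Subunits of 1 complex did not keep their proportions. Within a library, the mean log2 CPM of ORC1 and ORC6 minus that of ORC2, ORC3 and ORC5 was 0.03 to 0.06 under DMSO, -0.25 to -0.15 under GDC, -1.13 to -1.06 under GSK and -2.77 to -2.40 under COMBO. The arms did not overlap. The log2 ratio of RFC1 to the mean of RFC2 to RFC5 went the other way, from 0.49 to 0.57 under DMSO to 0.57 to 0.68 under GDC, 1.10 to 1.13 under GSK and 1.75 to 1.87 under COMBO. MCM10 over the mean of MCM2 to MCM7 declined from a mean of -1.18 under DMSO to -1.53 under GDC, -1.97 under GSK and -3.67 under COMBO. CDT1 over GMNN was -0.30 to -0.14 in DMSO, higher in GDC at -0.12 to 0.08, and lower in GSK at -0.62 to -0.57 and in COMBO at -0.95 to -0.80. Each of these 12 differences from DMSO had p = 0.1 (exact permutation test, two-sided), the smallest that 3 libraries against 3 allow, and 0.1 after adjustment over the 12.

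Per length of transcript, the highest and lowest subunits moved apart most in the origin recognition complex. ORC5 stood at 43.0 CPM per kilobase in DMSO and ORC3, the lowest, at 15.2, a ratio of 2.82 between levels. In COMBO ORC5 was at 18.2 CPM per kilobase and ORC1 had become the lowest at 2.08, a ratio of 8.73, with 6.58 to 11.0 in single libraries. The ratio of levels per kilobase within MCM2-7 was 4.38 in DMSO and 4.93 in COMBO, with MCM7 highest and MCM5 lowest in all 4 arms. In RFC it was 2.44 and 2.25, but the order of levels per kilobase changed from RFC3 highest and RFC1 lowest in DMSO to RFC2 highest and RFC5 lowest in COMBO.

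**Figure D4:**
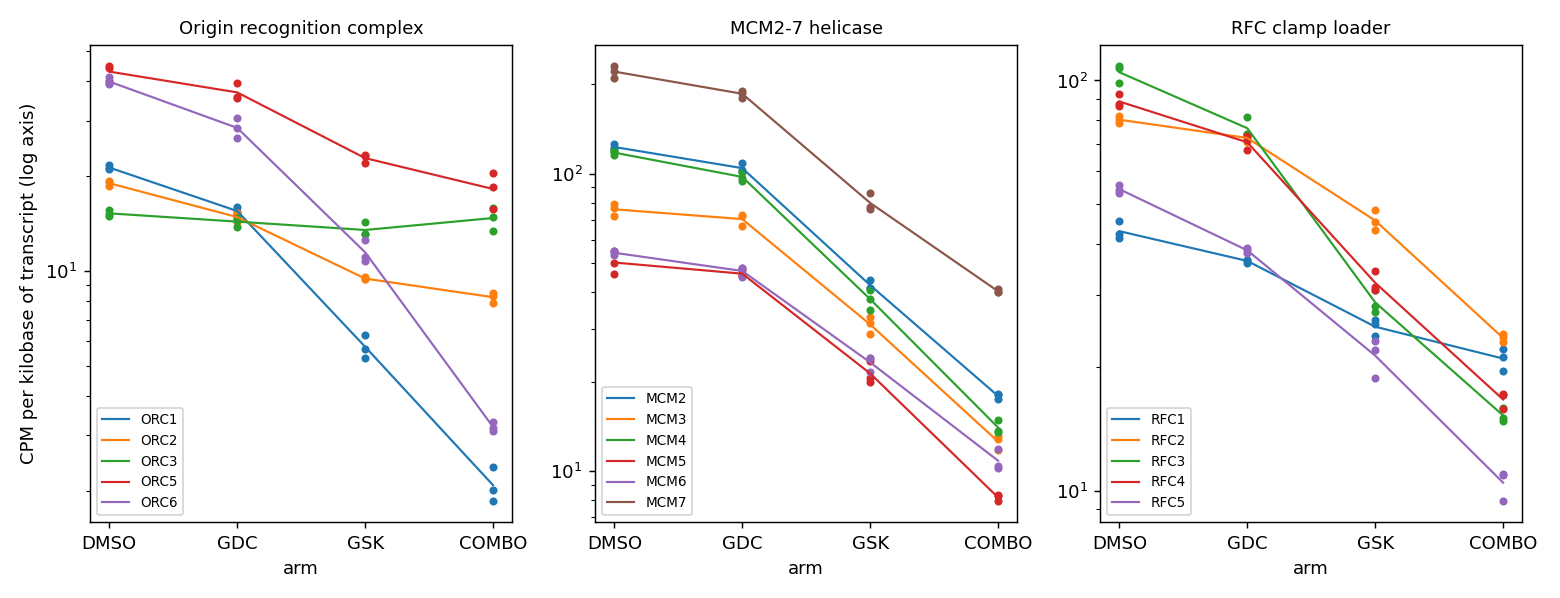
Points are libraries and lines arm means of CPM per kilobase of transcript (log axis) for the subunits of 3 complexes by arm, without ORC4. MCM2-7 lines fall side by side, while ORC1 and ORC6 drop through ORC2 and ORC3, and RFC1 crosses RFC3, RFC4 and RFC5.

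Outside the 51 genes, 35 other replication genes from a second list gave a milder version of the picture. In GDC 24 were lower and 2 higher, where 20.0% of all tested genes were lower and 20.0% higher. In GSK the counts were 31 and 3 (35.7% and 40.0% of tested genes). In COMBO they were 32 and 2 (39.2% and 43.3%), with a COMBO median of -1.53. The interaction was called for 19, all below 0, where 16.5% of tested genes were called below 0 and 4.86% above. ASF1B, a histone chaperone, was lowest in COMBO at -3.51 (SE 0.098, adjusted p = 1.96e-17), from 74.2 ± 2.79 to 6.35 ± 1.58 CPM. POLD4, the small subunit of polymerase delta, was highest, rising from 13.8 ± 2.27 to 46.7 ± 2.05 CPM, a log2 change of 1.70 (SE 0.084, adjusted p = 1.60e-13). The other gene higher in COMBO was MCM9, a helicase of repair, at 0.44 (SE 0.074, adjusted p = 1.78e-05). The sixth origin recognition subunit on this list, ORC4, was not called in COMBO, at -0.12 (adjusted p = 0.0733).

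Among 19 genes of RB and E2F control, 17 were lower and 2 higher in COMBO (39.2% and 43.3% of tested genes). The COMBO median was -1.56. E2F8, a repressor that is itself expressed in S phase, was lowest at -3.71 (SE 0.096, adjusted p = 7.61e-18). TFDP2, a dimer partner of E2F factors, at 0.48 (SE 0.050, adjusted p = 2.26e-08), and RBL2, the p130 member of the RB family, at 0.33 (SE 0.044, adjusted p = 9.51e-07), were the 2 that rose. In GDC these 2 were also the only ones of the 19 that rose, at 0.47 and 0.52, with 13 lower. In GSK 16 were lower and TFDP2 was higher. Of all tested genes, 20.0% were lower and 20.0% higher in GDC, and 35.7% and 40.0% in GSK.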

How the data were processed

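PolyA RNA of C4.2B cells was sequenced in 4 arms of 3 libraries. Per the submitters' processing notes the authors used STAR, HTSeq and hg38; their versions, the gene annotation and whether strand was used are not given in the sources used here, so genes that share exon positions or have pseudogenes are called uncertain. The deposited files hold raw counts per gene symbol. A deposited table of normalized values, which the authors made with DESeq2, was not used. The 5 summary lines (23.7% to 33.7% of reads) were left out.

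Counts were tested with edgeR 4.0.16 in R 4.3.3 (TMM, filterByExpr, glmQLFit and glmQLFTest, two-sided, 1 coefficient per arm, all 12 libraries), with Benjamini-Hochberg adjustment over 14189 genes. SE is the absolute log2 fold change over the square root of F. The common biological coefficient of variation was 0.0499. Log2 ratios used a prior count of 2. Between replicates, counts of genes with 10 or more reads per pair varied 1.78 to 6.57 times as much as sampling alone gives (chi-square over degrees of freedom), and every library counted as 1. A count of 0 allows up to 3 counts, 0.0675 to 0.341 CPM, for counting error only. The procedure was tested on simulated counts with as many rises as falls and the same spread for every gene. Such counts cannot show how the scaling acts in the real arms.

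Genes and lists were chosen with earlier results of these data known. Named with values in every library were the lowest and highest gene of each role group in COMBO and the 3 lowest and 3 highest interaction values; from other lists the lowest and highest, or all where a count was 5 or fewer. Other genes named were chosen after their values were seen. Coordinates and MANE Select transcript lengths are from GENCODE 44 on hg38, which placed all 51 genes, and promoters from RefSeq, the most upstream window of each gene. Alternatives were DESeq2 1.42.0, its size factors within edgeR, scaling by totals, keeping all genes, requiring a mean of 1 CPM or a log2 change of 1 in size, fitting only the compared arms, a replicate block, fits without each library, and a prior count of 0.25 for ratios.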

Additional observations from a re-analysis of the deposited data

Results flagged for a closer look

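The effect of GDC-0941 differed between cells without and with GSK126 in 39 of the 51 genes, by the interaction test of edgeR with Benjamini-Hochberg adjustment. All 39 interaction log2 values were below 0. Of all tested genes, 16.5% were called below 0 and 4.86% above. That background was unstable, with 1319 genes below 0 and 1638 above where no filter on low counts was used. The licensing genes were at -1.87 for CDC6, -1.35 for ORC6, -1.02 for ORC1, -0.78 for CDT1 and -0.34 for GMNN. Values for the helicase were -1.25 for MCM5, -1.19 for MCM3, -1.16 for MCM4, -1.00 for MCM2, -0.89 for MCM6 and -0.74 for MCM7. Activation genes stood at -2.42 for MCM10, -1.75 for CDC45, -1.20 for GINS2, -0.99 for GINS1, -0.90 for GINS4, -0.75 for CDC7 and -0.65 for GINS3. Polymerase and primase values were -1.17 for POLA2, -0.95 for POLD1, -0.61 for PRIM1, -0.60 for PRIM2 and -0.41 for POLD2. For the clamp and its loader they were -0.95 for PCNA, -0.80 for RFC2, -0.62 for RFC4, -0.53 for RFC5 and -0.46 for RFC3. RPA gave -0.66 for RPA3. Okazaki fragment genes were at -1.31 for FEN1 and -0.72 for LIG1. Fork protection genes gave -2.40 for CLSPN, -0.87 for TIMELESS and -0.72 for WDHD1. CAF-1 genes were at -0.40 for CHAF1A and -0.40 for CHAF1B, whose call was lost without GSK replicate A (-0.28, adjusted p = 0.0697) and without COMBO replicate A (-0.27, adjusted p = 0.0694). Regulators of S-phase entry were at -1.43 for E2F1, -1.28 for E2F2 and -0.55 for CDC25A. The largest adjusted p among the 39 was 0.0199, for GMNN.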

How the results depend on the processing

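The falls of the 51 genes kept their direction in nearly every setting. In COMBO against DMSO 50 genes were lower in all 13 refits. Scaling by library totals moved the medians to -1.14 for GSK, -2.21 for COMBO and -1.92 for COMBO against GDC, and called 1 gene, ORC3, higher in COMBO and in COMBO against each single agent. Requiring a log2 change of 1 or more in size left 0 lower and 0 higher in GDC, 24 lower in COMBO against GSK and 14 lower in the interaction. The 1 gene higher in GDC became 0 by DESeq2, with DESeq2 scaling inside edgeR and without a filter, and 0 to 0 without single libraries. Higher calls in COMBO against GSK were 1 at a mean of at least 1 CPM and 0 to 1 without single libraries. Interaction calls above 0 were 1 with DESeq2 scaling, 1 without a filter, 2 at a mean of at least 1 CPM and 0 to 2 without single libraries, ORC3 and ORC2. Over all tested genes the interaction calls were 1319 lower and 1638 higher without a filter.

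Signs that turned belonged to values not past the threshold in either setting, apart from ORC3 in COMBO under library totals (0.16). For GDC, LIG1 turned to -0.013 and POLE to -0.014 without a filter. Without single libraries LIG1 ranged from -0.069 to 0.065 and POLE from -0.058 to 0.063. ORC3 in COMBO against GDC then ranged from -0.0054 to 0.10, and POLE in COMBO against GSK from -0.11 to 0.00098. Interaction values ranged from -0.21 to 0.017 for TIPIN, -0.15 to 0.021 for POLE, -0.033 to 0.13 for RPA2 and -0.055 to 0.10 for RFC1. RFC1 was also 0.025 by DESeq2, 0.028 with its scaling, 0.0018 with library totals, 0.0765 without a filter and 0.046 at a mean of at least 1 CPM.

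Replicate letters gave at most a weak pairing of the libraries. The 18 same-letter pairs had correlations of -0.08 to 0.19, 2 of them over 0.1. Pairs of different letters, also between arms, had -0.15 to 0.10, and 6 of 12 libraries correlated best with their own letter. With the replicate block 39 genes were lower in GDC, and no other count of calls changed. Of 1743 refits of single named values, 1681 kept both their sign and their side of the threshold. The cause of these shifts was not tested.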
